A study of Rattus norvegicus with 16 samples.

Results

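Immunoglobulin G is read by cells through Fc receptors, and 9 genes of this system were followed in rat dorsal root ganglia (DRGs), the clusters of sensory neuron cell bodies beside the spinal cord. They were Fcgr1a, Fcgr2a, Fcgr2b, Fcgr3a, Fcer1g, Fcgrt, Tyrobp, Trem2 and Syk, and each was found by its symbol among the 21021 genes of the expression tables. The genes were chosen by name with earlier results of the same samples known, in which Fc receptor genes stood out 7 and 14 days after tumor cell implantation. Their differences from sham on those days are therefore given as a description with no p-value. Tests are given for day 1 against sham and for day 14 against day 7. Both days of the latter contrast lay behind the choice of the genes, so its p-values are read with that limit. P-values are also given for other genes of the pathway, whose lists were drawn up with those earlier results known as well, so that they are no independent evidence.

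Activating Fc receptors bind the constant part of IgG and signal through a tyrosine motif in the cytoplasm called an ITAM. Most lack this motif themselves and borrow it from an adaptor, either the Fc receptor gamma chain encoded by Fcer1g or, for receptors such as Trem2, the adaptor DAP12 encoded by Tyrobp. Src family kinases phosphorylate the ITAM, which then recruits the kinase Syk. Fcgr2b carries an inhibitory motif (ITIM) and restrains the activating receptors. Fcgrt encodes FcRn, a receptor of another kind, which pairs with beta-2-microglobulin and salvages IgG from breakdown inside cells. In nervous tissue most of these genes are known from macrophages and microglia, while FcRn is also made by endothelial and other cells.

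The samples came from adult female Sprague-Dawley rats that received mammary carcinoma cells in the cavity of the left tibia (tumor cell implantation, TCI). Ganglia L3 to L5 of the injected side of 1 rat formed 1 sample, with 4 samples each from sham rats and from rats 1, 7 and 14 days after TCI. The sample labels place the sham ganglia at day 14 after a PBS injection, whereas the study's methods name boiled tumor cells as the sham injection. For TCI days 1 and 7, effects of the tumor cells and of elapsed time against sham cannot be told apart. Following the study, group comparisons dropped a pair of samples (TCI day 1 sample 2 and TCI day 7 sample 3) and used the other 14 (4 sham, 3 each from days 1 and 7, and 4 from day 14).

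Values are FPKM, fragment counts scaled to transcript length and to the mapped total of the sample, so that levels of different genes may be compared per length. The tables hold no fragment counts. From the steps between the lowest values, the depth of the 16 samples lay between 0.913 and 1.11 times that of the middle sample, and no counting error could be given. A few samples stood apart. The summed FPKM of 10 skeletal muscle markers was 493 in sham sample 4 and 20830 in TCI day 7 sample 3, against 9.34 to 20.8 in the other 14 samples. TCI day 14 sample 2 had the highest summed FPKM of 15 macrophage markers, 1872, against 548 to 703 in the other day 14 samples. As a check of the labelled tissue, 10 sensory neuron markers summed to between 9281 and 16200 FPKM in all 16 samples.

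**Figure D1:**
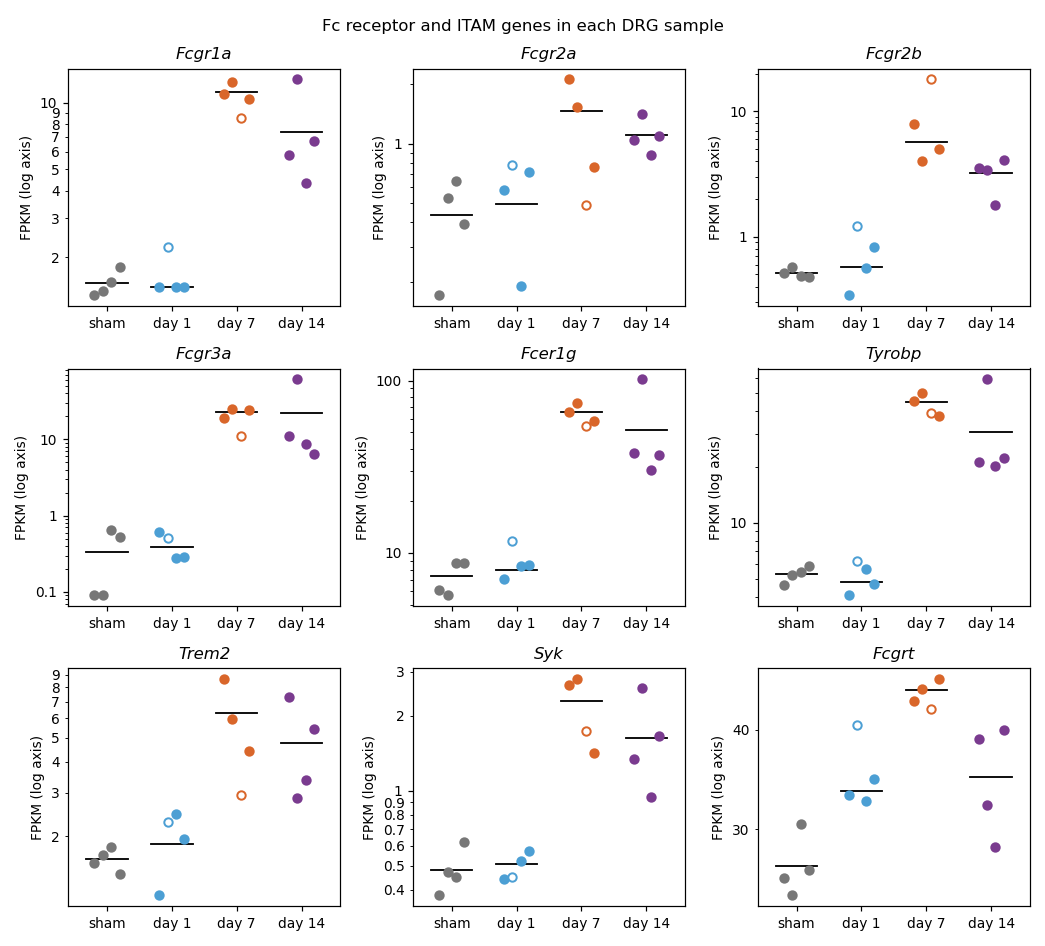
FPKM of the 9 genes (log axis) in every sample of sham and of TCI days 1, 7 and 14, shown from left to right by sample number within a group; open circles are the 2 samples left out by the study and black bars are means of the other samples. Fcgr3a lies between 0.09 and 0.64 FPKM in sham and day 1 samples and between 6.51 and 61.1 FPKM on days 7 and 14.

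The levels on each day were set against sham with limma on log2(FPKM + 1), with a cut-off of 1 for the size of the log2 fold change and 0.001 for the adjusted p-value, as the study used. The study applied these cut-offs with another test, so its counts of genes differ from those given here. On TCI day 7, 5 of the 9 genes were past both cut-offs, all of them higher than in sham (Fcgr1a, Fcgr2b, Fcgr3a, Fcer1g and Tyrobp), where 1.83% of the 14023 genes tested were higher and past the cut-offs. At an adjusted p of at most 0.05 and no limit on the fold change, the count was 9 of 9 beside 14.5% of genes tested. The same 5 genes were past the cut-offs on day 14, beside 0.642% of genes tested, and again 9 of 9 at an adjusted p of at most 0.05, beside 11.9%. These counts describe the choice of the genes and nothing is read from them. In addition, 4 of the 9 genes (Fcgr2a, Fcgr2b, Fcgr3a and Syk) stayed below 1 FPKM in every sham sample and entered the test through their TCI samples.

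The day 14 count depended on single samples. It was 0 when any of the 4 sham samples was left out, 1 or 2 without any day 1 sample, 3 without any day 7 sample, 2 without day 14 sample 1 and 3 without day 14 sample 4. For day 7 it lay between 4 and 7 over all samples left out in turn, and it was 6 over all 16 samples, with Syk as the added gene.

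**Figure D2:**
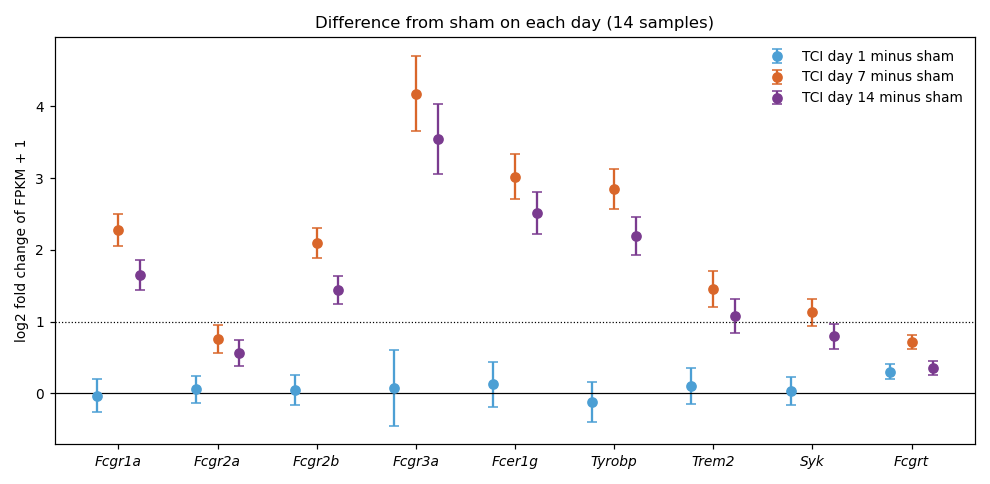
Log2 fold change of FPKM + 1 against sham on TCI days 1, 7 and 14 for the 9 genes, with bars of 1 standard error from the limma fit of 14 samples; the dotted line marks a log2 fold change of 1. Day 1 points lie between -0.12 and 0.30, while day 7 points range from 0.72 for Fcgrt to 4.18 for Fcgr3a.

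Among the IgG receptors, Fcgr3a differed most from sham. It encodes an activating receptor that works through the gamma chain, and its rat gene is also listed as Fcgr4 or CD16-2. Its sham values were 0.09, 0.09, 0.64 and 0.53 FPKM in samples 1 to 4, and its day 1 values were 0.61, 0.51, 0.28 and 0.29 FPKM. The day 7 samples held 19.2, 25.3, 10.95 and 24.5 FPKM, followed on day 14 by 11.1, 61.1, 8.80 and 6.51 FPKM. Every day 7 and day 14 sample was thus above every sham and day 1 sample, and day 14 sample 2 lay far above the other 3 of its group. The log2 fold change was 4.18 ± 0.53 (SE, n = 3 against 4) on day 7 and 3.54 ± 0.49 (n = 4 against 4) on day 14. As a ratio of mean FPKM, day 7 was 68.2 times sham, a figure that rests on sham values close to 0. The day 14 ratio was 64.8 with all 4 samples and 26.0 without sample 2.

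Fcgr1a encodes the high-affinity IgG receptor. It was present at a low level in every sham sample (1.34, 1.4, 1.55 and 1.81 FPKM) and in the day 1 samples (1.47, 2.22, 1.46 and 1.46 FPKM). On day 7 it reached 10.9, 12.4, 8.56 and 10.4 FPKM and on day 14 it stood at 5.77, 12.8, 4.35 and 6.71 FPKM. The ranges of days 7 and 14 overlapped each other and lay wholly above those of sham and day 1. Fitted log2 fold changes were 2.28 ± 0.23 on day 7 and 1.64 ± 0.21 on day 14, or 7.37 and 4.85 times sham as ratios of means.

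Fcgr2b, the inhibitory receptor, was even among the sham samples at 0.51, 0.57, 0.49 and 0.48 FPKM and read 0.34, 1.21, 0.56 and 0.83 FPKM on day 1. Its day 7 values were 7.93, 4.04, 17.96 and 4.98 FPKM, and its day 14 values 3.53, 3.40, 1.79 and 4.07 FPKM. The highest value, 17.96 FPKM, was that of day 7 sample 3, the sample rich in muscle transcripts that the study left out. This sample was the lowest of its group for 6 of the 9 genes and the highest for Fcgr2b alone. Without it the log2 fold change on day 7 was 2.09 ± 0.21, and with all 16 samples 2.48 ± 0.32. On day 14 it was 1.44 ± 0.19, with no overlap with sham.

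Fcgr2a, an activating low-affinity receptor whose rat row also carries the names Fcgr3 and fc-gamma RIII, stayed low throughout. It ranged from 0.17 to 0.65 FPKM in sham and from 0.19 to 0.78 FPKM on day 1. The day 7 range was 0.49 to 2.12 FPKM, with sample 3 at the bottom and overlapping sham, and the day 14 range was 0.88 to 1.41 FPKM. The log2 fold change was 0.76 ± 0.19 on day 7 over the 14 samples and 0.585 ± 0.20 over all 16. On day 14 it was 0.56 ± 0.18. Fcgr2a, Fcgr2b and Fcgr3a lie near each other on chromosome 13 in RefSeq and, with LOC498276, are similar genes. RSEM shares out fragments that match several of them. The split between these rows is therefore uncertain, and no value of the tables shows how many fragments were shared.

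The make-up of the IgG receptor transcripts differed between the early and late groups. The 4 receptor genes summed to 2.81 ± 0.57 FPKM (SD, n = 4) in sham, 2.93 ± 0.41 (n = 3) on day 1, 41.4 ± 1.68 (n = 3) on day 7 and 33.6 ± 30.1 (n = 4) on day 14. Without sample 2 the day 14 sum was 18.5 ± 2.80 FPKM (n = 3). Fcgr1a made up 55.1 ± 7.0% of this sum in sham and Fcgr3a 10.9 ± 8.2%. On day 7 the order was turned, with 27.1 ± 1.5% for Fcgr1a and 55.5 ± 6.8% for Fcgr3a, and day 14 was similar at 26.8 ± 8.3% and 55.1 ± 17.4%. Single samples strayed from these means. Fcgr3a took 77.7% of the sum in day 14 sample 2 and 35.4% in day 14 sample 4, and in day 7 sample 3 Fcgr2b held 47.3% and Fcgr3a 28.9%. The share of Fcgr2b was 19.0 ± 4.8% in sham, 13.8 ± 5.4% on day 7 and 13.6 ± 7.6% on day 14.

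**Figure D3:**
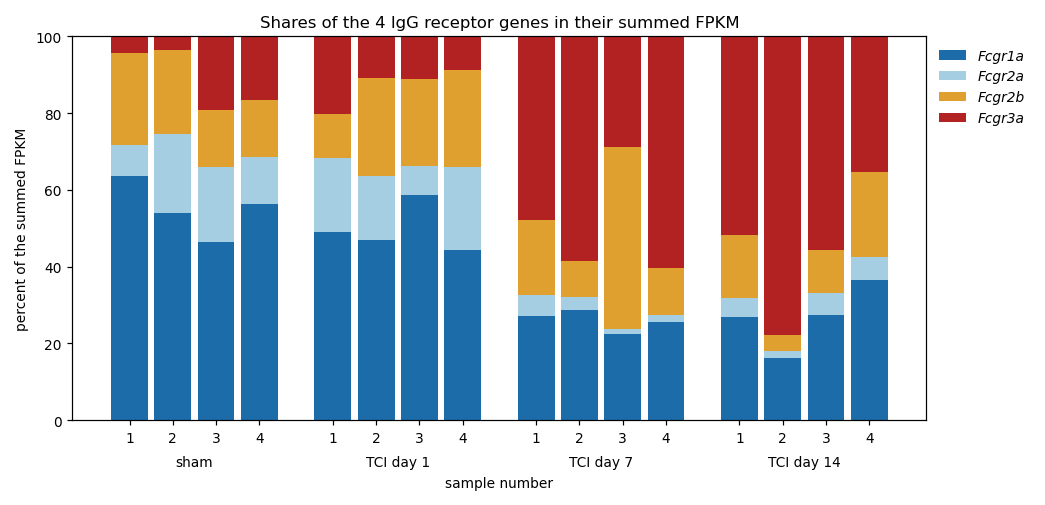
Percent of the summed FPKM of Fcgr1a, Fcgr2a, Fcgr2b and Fcgr3a taken by each gene in each of the 16 samples, by sample number within a group. Fcgr1a holds the largest share in all sham and day 1 samples, and Fcgr3a in the day 7 and day 14 samples except day 7 sample 3, where Fcgr2b is largest, and day 14 sample 4, where Fcgr1a is.

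Both ITAM adaptors had higher mean FPKM than each of the 4 IgG receptors in every group. Fcer1g, the gamma chain, held 6.06, 5.66, 8.76 and 8.76 FPKM in sham and 7.01, 11.7, 8.44 and 8.47 FPKM on day 1. Its day 7 values were 65.4, 73.7, 54.2 and 58.1 FPKM, and its day 14 values 38.0, 101.8, 30.3 and 37.0 FPKM. Days 7 and 14 lay above all sham and day 1 samples, and day 14 sample 2 was the highest sample of all. Against sham, the log2 fold change was 3.02 ± 0.31 on day 7 and 2.51 ± 0.29 on day 14. As ratios of means these were 8.99 and 7.08 times sham, and 4.80 times on day 14 without sample 2.

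Tyrobp, which encodes DAP12, followed the gamma chain closely. It stood at 4.62, 5.23, 5.40 and 5.83 FPKM in sham and at 4.06, 6.24, 5.64 and 4.68 FPKM on day 1. The day 7 samples read 45.5, 50.3, 38.9 and 37.6 FPKM and the day 14 samples 21.3, 59.2, 20.2 and 22.3 FPKM. Apart from sample 2, the day 14 values lay within a narrow band of 21.2 ± 1.0 FPKM (SD, n = 3), below every day 7 sample and above every sham sample. In log2 fold change it was 2.85 ± 0.28 on day 7 and 2.19 ± 0.26 on day 14.

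Trem2, a lipid-sensing receptor of macrophages and microglia that signals through DAP12, moved less evenly. Its sham values were 1.55, 1.67, 1.80 and 1.41 FPKM and its day 1 values 1.15, 2.28, 2.46 and 1.95 FPKM. On day 7 it read 8.64, 5.94, 2.93 and 4.42 FPKM, and on day 14 7.32, 2.86, 3.38 and 5.43 FPKM. All day 7 and day 14 samples were above the sham and day 1 samples, yet the order within groups was not that of the adaptors. Day 14 sample 2 was the highest of its group for 6 of the 9 genes (Fcgr1a, Fcgr2a, Fcgr3a, Fcer1g, Tyrobp and Syk) and the lowest for Trem2. The log2 fold change was 1.45 ± 0.26 on day 7 and 1.07 ± 0.24 on day 14, and on neither day was Trem2 past the cut-off on the adjusted p-value.

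Syk, the kinase that both adaptors recruit, was low in whole ganglia. It ranged from 0.38 to 0.62 FPKM in sham, 0.44 to 0.57 FPKM on day 1, 1.42 to 2.80 FPKM on day 7 and 0.94 to 2.58 FPKM on day 14, so that the late groups did not overlap the early ones. For Syk the log2 fold change was 1.13 ± 0.19 on day 7 and 0.80 ± 0.18 on day 14. These sizes are on the scale of log2(FPKM + 1), which understates changes of low genes, and the ratios of means were 4.78 and 3.40.

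Fcgrt, the FcRn gene, was the most abundant receptor of the set in sham and had the smallest ratios to sham of the 9 genes on days 7 and 14. Its sham samples held 26.1, 24.8, 30.5 and 26.7 FPKM and its day 1 samples 33.1, 40.6, 32.6 and 34.7 FPKM. On day 7 the values were 43.4, 45.0, 42.5 and 46.3 FPKM, and on day 14 they were 39.0, 32.2, 28.5 and 40.0 FPKM. Day 7 lay above all samples of the other groups, whereas day 14 overlapped both sham and day 1. The log2 fold change was 0.72 ± 0.10 on day 7 (1.66 times sham) and 0.35 ± 0.09 on day 14 (1.29 times). Its partner B2m, which encodes beta-2-microglobulin, had a mean of 197 FPKM in sham (161 to 219), 193 on day 1 (162 to 253), 682 on day 7 (669 to 700.0) and 861 on day 14 (615 to 1320.0). B2m was past the cut-offs on day 7 (log2 fold change 1.80 ± 0.22, adjusted p = 0.000217) and on day 14 (2.07 ± 0.20, adjusted p = 0.000139).

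Regions upstream of the start site were read because several of these genes moved together. RefSeq (assembly GRCr8) had a promoter entry for 5 of the 9 genes, and none was found for Fcgr1a, Fcgr2b, Fcer1g and Tyrobp. The 250 bases before each start were searched on both strands for GAGGAA, the core of sites bound by PU.1, an ETS factor of myeloid cells. All 5 genes held it in at least 1 entry, and 1 of the 2 entries of Fcgr2a lacked it. Fcgr2a and Fcgrt each had another match, 102 and 225 bases before the start, that is not printed below. Over the genome 23.3% of 33469 promoter entries held it, which is a share of entries and not of genes. Fcgr1a, Fcgr2b, Fcer1g and Tyrobp were past the cut-offs on day 7 but are not covered by this search. Of the 5 genes that are covered, Fcgr3a alone was past the cut-offs on that day. These matches are letters in a window and not measured binding. The windows of 40 bases below are shown for the receptor genes with an entry and for Syk, 1 window a gene, read along the gene's strand with the motif in capitals; TTCCTC is the same motif on the other strand.
Fcgr3a: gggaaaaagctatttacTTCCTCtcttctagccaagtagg
Fcgr2a: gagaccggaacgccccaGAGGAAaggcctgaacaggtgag
Trem2: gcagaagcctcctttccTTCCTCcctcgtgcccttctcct
Syk: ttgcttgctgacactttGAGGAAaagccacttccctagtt
Fcgrt: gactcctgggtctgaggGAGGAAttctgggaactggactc
The Fcgr3a window lies at chr13:85782565-85782604 on the plus strand, with its motif starting 54 bases before the start site. On the minus strand, the Fcgr2a window at chr13:85828806-85828845 has the motif 143 bases before the start. On that strand too, the Trem2 window at chr9:20151786-20151825 has the motif 29 bases before the start, the Syk window at chr17:12813313-12813352 has it 62 bases before, and the Fcgrt window at chr1:104720162-104720201 has it 158 bases before. These are RefSeq positions, since the genome build behind the expression tables is not given in the sources used here.

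One day after TCI, 0 of the 9 genes were past the cut-offs and 0 of 14023 genes tested were (0.0% higher). With its own test, the study did report genes higher and lower on that day. At an unadjusted p under 0.05 in limma there were 1 of the 9 and 734 of all genes tested (5.23%). That gene was Fcgrt, with a log2 fold change of 0.30 ± 0.10 (limma adjusted p = 0.863). Every day 1 sample had more Fcgrt than every sham sample, and since it was singled out after its values were seen, its test by permutation is a description as well. This two-sided exact permutation test gave p = 0.0571 over the 14 samples and p = 0.0286 over all 16, the smallest that 4 against 4 samples allow. The other 8 log2 fold changes lay between -0.12 ± 0.28 for Tyrobp and 0.13 ± 0.31 for Fcer1g, with adjusted p = 0.999 for each, and their sham and day 1 ranges overlapped.

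From day 7 to day 14 the 9 genes were lower in log2 fold change, from -0.20 ± 0.19 for Fcgr2a to -0.66 ± 0.28 for Tyrobp, but 0 of 9 were past the cut-offs and none reached an adjusted p of 0.05 in limma. Of all genes tested, 0.0143% were lower and past the cut-offs. At an unadjusted p under 0.05 there were 4 of 9 (Fcgr1a, Fcgr2b, Fcgrt and Tyrobp), all lower, beside 983 of 14023 genes tested (7.01%) that were lower. Fcgrt had the lowest adjusted p of 0.233, with a log2 fold change of -0.37 ± 0.10 and all 4 day 14 samples below all 3 day 7 samples. Day 14 sample 2 was singled out after its values were seen, so the fit without it is a description. Leaving it out moved Fcer1g from -0.51 to -0.89, Tyrobp from -0.66 to -1.02 and Fcgr3a from -0.64 to -1.31. In that fit 0 of 9 were past the cut-offs, and 4 of 9 were lower at an adjusted p of at most 0.05, beside 178 of 13945 genes tested (1.28%). These were Fcgr1a (-0.90), Fcgr3a, Fcer1g and Tyrobp, and sample 2 was the highest of its day 14 group for each of them. Day 7 against day 1 uses the day 7 values behind the choice of the genes and is a description too. It had 5 of 9 genes higher and past the cut-offs, beside 0.884% of genes tested. That count was 0 without day 1 sample 1 or day 7 sample 1, and 1 without day 1 sample 3, day 1 sample 4 or day 7 sample 2.

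Balances between genes within a sample were compared for day 14 against day 7, with the same limit from the choice of the genes. The log2(FPKM + 1) of Fcgr2b exceeded that of Fcgr2a by 1.42 ± 0.40 (SD, n = 3) on day 7 and by 0.97 ± 0.31 (n = 4) on day 14. Their difference of -0.46 was not past the threshold (two-sided exact permutation test, p = 0.143, where 0.0286 is the smallest possible). Over all 16 samples, with day 7 sample 3 included, it was -1.02 (exact permutation test, p = 0.0857). In sham the mean difference was 0.09 ± 0.21 (n = 4), but both genes were below 1 FPKM there, where adding 1 narrows a difference. As ratios of FPKM, Fcgr2b was 0.75 to 3.0 times Fcgr2a in the sham samples and 36.7 times in day 7 sample 3. Tyrobp was below Fcer1g in all 16 samples, at 0.53 to 0.92 times its FPKM. The balance of these adaptors was -0.56 ± 0.05 on day 7 and -0.71 ± 0.11 on day 14, a difference of -0.16 (exact permutation test, p = 0.0857).

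In ganglia sequenced whole, more cells of a type and more RNA per cell cannot be told apart, and markers of several immune cell types moved with the Fc receptor genes. Of all genes tested, 1.83% were higher and past the cut-offs on day 7 and 0.642% on day 14. Of 15 macrophage markers, 11 were past the cut-offs on day 7 and 6 on day 14, with medians of 2.15 and 1.60 in log2 fold change. Over the 14 samples their summed FPKM was 81.3 to 143 in sham and 107 to 125 on day 1. By day 7 it was 959 to 1298, and the day 14 samples spanned 548 to 1872. Lyz2, the lysozyme of myeloid cells, made up much of it, with a mean of 55.0 FPKM in sham and 663 on day 7. All 8 T cell markers tested were past the cut-offs on day 7 and 4 on day 14, and their sums were 5.68 to 8.44 FPKM in sham and 41.6 to 96.7 FPKM on day 7. Cd4 made up most of the sham sum, with a mean of 5.92 FPKM beside 0.05 for Cd3e and 0.07 for Cd8a. On day 7 these means were 23.2, 7.67 and 10.2 FPKM. Of the NK cell markers, 2 of 5 tested passed on day 7 and 0 on day 14. Their sums went from 0.73 to 1.42 FPKM in sham to 19.1 to 40.9 FPKM on day 7 and 8.10 to 51.6 FPKM on day 14, the highest again in sample 2. Not every gene of the NK list followed. Ncr1, which was not tested, had means of 0.57 FPKM in sham, 0.70 FPKM on day 7 and 0.46 FPKM on day 14. Klrb1 was at 0 in every sham, day 1 and day 14 sample of the 14.

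Other cells that carry Fc receptors gave low values. The 9 neutrophil markers summed to 0.81 to 1.21 FPKM in sham, 5.38 to 20.3 FPKM on day 7 and 1.75 to 3.13 FPKM on day 14. Mean FPKM in sham and on day 7 was 0.0875 and 4.93 for S100a9, 0.0825 and 3.46 for S100a8, and 0.60 and 1.98 for Csf3r. On day 7, 2 of 2 neutrophil markers tested were higher at an adjusted p of at most 0.05, beside 14.5% of all genes tested. Elane and Mpo, which encode granule proteins, were listed at 0 in every sham and day 1 sample of the 14, and Elane also on day 14. Of the mast cell markers, Kit, which sensory neurons are also known to make, had group means of 11.9 to 13.2 FPKM, while the mast cell proteases were low and higher on day 7, with means from 0.13 FPKM in sham to 1.11 FPKM for Cma1, from 0.075 to 0.887 FPKM for Tpsb2 and from 0.0625 to 1.06 FPKM for Cpa3. All 6 B and plasma cell markers in the tables had means below 1 FPKM in every group, with sums of 0.46 to 2.42 FPKM. Of the dendritic cell markers 0 of 3 tested were past the cut-offs on either day, and Itgax, which macrophages also make, had means of 0.19 FPKM in sham and 2.40 FPKM on day 7. Flt3 had 7.99 and 6.85 FPKM in these groups and Zbtb46 2.06 and 2.39 FPKM. On day 7, 1 of the 3 was higher and 1 lower at an adjusted p of at most 0.05. Of all genes tested, 14.5% were higher and 484 of 14023 lower at that threshold. Other tissue markers moved as well. Fibroblast markers summed to 409 to 586 FPKM in sham and 946 to 1197 FPKM on day 7, and neuron markers to 15380 to 16200 and 13130 to 13760 FPKM. At an adjusted p of at most 0.05 on day 7, 3 of 6 fibroblast markers were higher, beside 14.5% of all genes tested. Of the neuron markers 4 of 10 were lower at that threshold, beside 484 of 14023 genes tested. The part of each of these cell types in the levels of the Fc receptor genes was not tested.

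Set against the macrophage marker sum of the same sample, the 9 genes differed in their pattern over the groups. Fcer1g was 6.50 ± 0.64% of the sum in sham and 7.04 ± 0.77% on day 1. Later it was 6.01 ± 0.31% (day 7) and 5.76 ± 0.67% (day 14), and its day 7 range of 5.68 to 6.29% overlapped that of sham, 6.13 to 7.45%. Tyrobp was 4.82 ± 0.99% in sham and 4.06 ± 0.28% on day 7, and Fcgr2b was 0.48 ± 0.16% and 0.53 ± 0.23%, with ranges that overlapped. Fcgr3a was 0.26 ± 0.18% in sham and 2.12 ± 0.39% on day 7, with no overlap. Trem2 was lower relative to the sum, with 1.50 ± 0.44% in sham, 0.58 ± 0.21% on day 7 and 0.70 ± 0.41% on day 14. Syk was 0.43 ± 0.08%, 0.21 ± 0.05% and 0.20 ± 0.07% in these groups. Fcgr1a was 1.39 ± 0.24% in sham and 1.03 ± 0.07% on day 7, and Fcgr2a 0.38 ± 0.17% and 0.13 ± 0.06%. Fcgrt was 24.8 ± 5.9% in sham and 4.16 ± 0.68% on day 7.

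Because Lyz2 dominates this sum, it was also left out. Fcgr3a was then 0.51 ± 0.37% of the other 14 markers in sham and 5.30 ± 0.61% on day 7, Fcer1g was 12.4 ± 0.7% and 15.2 ± 1.6%, and Tyrobp 9.17 ± 1.45% and 10.3 ± 1.4%. The order of Fcer1g thus turned, with all 3 day 7 samples (14.2 to 17.1%) above the sham range of 11.5 to 13.3%. Trem2 was 2.84 ± 0.70% in sham and 1.50 ± 0.66% on day 7 and Syk 0.83 ± 0.13% and 0.53 ± 0.17%, and for both the ranges then overlapped. Without Lyz2 the lower day 7 share of Fcgr1a was nearly gone, with 2.64 ± 0.33% in sham and 2.60 ± 0.23% on day 7. Fcgr2a was 0.73 ± 0.33% in sham and 0.35 ± 0.19% on day 7. Its ranges then overlapped, with 0.37 to 1.08% in sham and 0.19 to 0.55% on day 7. In day 14 sample 2, where the marker sum was highest, Trem2 was 0.15% of the full sum against 0.61 to 1.04% in the other 3 samples, whereas Fcer1g was 5.44% against 5.41 to 6.76%.

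**Figure D4:**
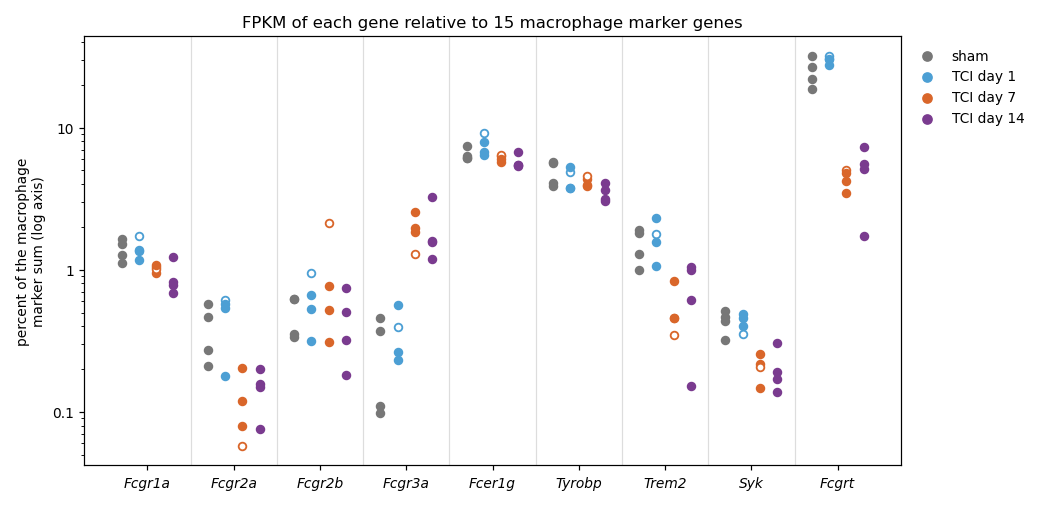
FPKM of each of the 9 genes as a percent of the summed FPKM of 15 macrophage markers in the same sample (log axis), 1 point per sample, with open circles for the 2 samples left out by the study. Day 7 means against sham are 6.01 and 6.50% for Fcer1g, whose order turns without Lyz2, 2.12 and 0.26% for Fcgr3a, and 0.58 and 1.50% for Trem2.

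The 3 genes outside the set of 9 whose profile over the 14 samples was nearest to each member were found by the root mean square (RMS) difference of centred log2(FPKM + 1). Nearest to Fcer1g were Cd68, a lysosomal protein of macrophages (RMS difference 0.13), Mpeg1 (0.21) and the immunoproteasome subunit Psmb9 (0.21). For Tyrobp they were Cd68 (0.20), Ms4a7 (0.21) and the hexokinase Hk3 (0.22), while Fcer1g and Tyrobp differed from each other by 0.18. The median over all genes tested was 1.399 for Fcer1g and 1.33 for Tyrobp. Fcgr1a had Tnfaip8l2 (0.14), the macrophage growth factor receptor Csf1r (0.15) and Gmfg (0.15) as its nearest genes.

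Fcgr3a came nearest to Lyz2 (0.37), Slfn4 (0.42) and the interferon-induced chemokine Cxcl11 (0.44), with 2.01 as the median over genes tested. Fcgr2b had Tbxas1 (0.25), the ITIM receptor Cd33 (0.27) and the folate receptor Folr2 (0.28), and Trem2 had the lipid carrier Pltp (0.28), Dpp4 (0.28) and the lectin Fcna (0.28). Stk17b (0.09), Psd4 (0.10) and Arhgap4 (0.11) were nearest to Syk. Ly96, a partner of the endotoxin receptor, came within 0.15 of Fcgr2a, beside LOC108348127 (0.15) and LOC100302372 (0.17). Fcgrt stood apart with Tmem150a (0.09), Snx33 (0.12) and Ecm1 (0.12), and its nearest fellow member, Fcgr2a, was at 0.29 beside a median of 0.30 over all genes.

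Other genes of Fc receptor and ITAM signaling were taken from 9 lists of 133 genes, of which 124 were in the tables and 89 were tested. On day 7, 23 of the 89 were higher and past the cut-offs and 0 lower, beside 1.83% of all genes tested that were higher. The median log2 fold change was 1.00 against 0.04 over all genes tested. On day 14 there were 11 higher and 0 lower, beside 0.642% of all genes tested, with a median of 0.75 against 0.025. These shares stand beside the counts of the single lists below as well. Of the 89 genes, 37 were below 1 FPKM in every sham sample and entered the test through TCI samples, and 15 of the 23 were among these. Adjusted p-values printed below for such genes are a description. The day 7 count was 4 without day 7 sample 1 or sample 2, 5 to 10 without any sham sample, 14 without any day 1 sample and 39 without day 14 sample 2. The day 14 count was 17 without day 14 sample 2 and 2 to 5 without any sham sample, any day 1 sample, day 7 sample 1 or 2, or day 14 sample 1 or 4.

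**Figure D5:**
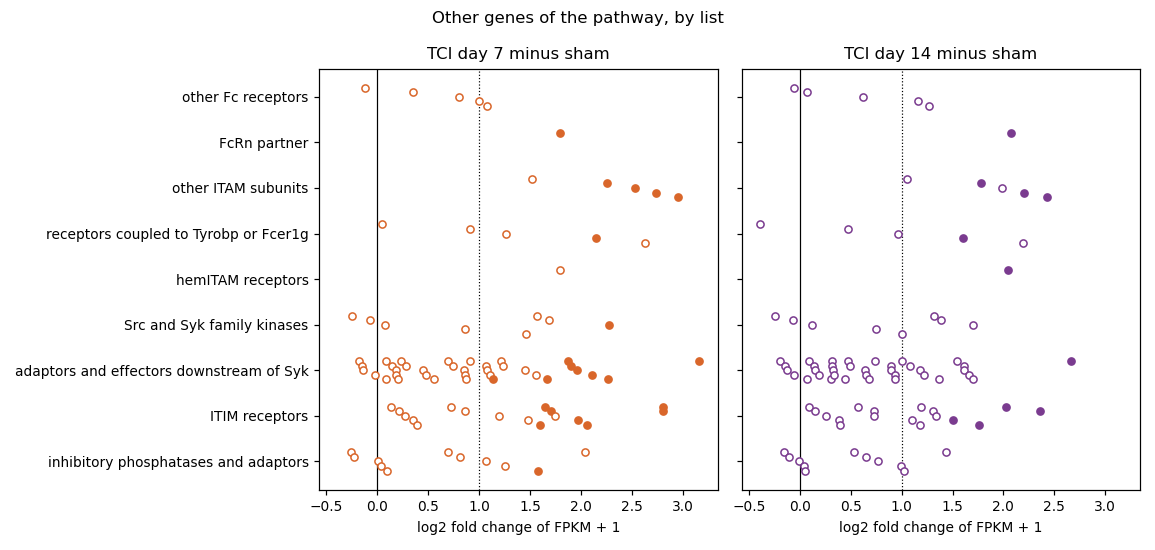
Log2 fold change of FPKM + 1 against sham on TCI day 7 (left) and day 14 (right) for the 89 tested genes of 9 pathway lists, 1 point per gene; filled points are past the cut-offs and the dotted line marks a log2 fold change of 1. Filled points number 23 on day 7 and 11 on day 14, all to the right of 0.

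Other Fc receptors gave 0 of 5 tested past the cut-offs on either day. Trim21, an Fc receptor of the cytosol, had a mean of 2.41 FPKM in sham and 6.19 FPKM on day 7 (log2 fold change 1.07 ± 0.24, adjusted p = 0.00703), and LOC498276 had 0.39 and 1.85 FPKM (1.00 ± 0.25, adjusted p = 0.0154). Fcrl2 was at 0.34 and 1.33 FPKM (adjusted p = 0.148). Pigr, which carries IgA across epithelia, had 4.46 and 4.01 FPKM and Fcmr, the IgM receptor, 0.86 and 1.4 FPKM, with adjusted p = 0.422 and 0.191.

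Signaling subunits of lymphocyte receptors were past the cut-offs in 4 of 5 cases on day 7 and 3 of 5 on day 14, a count that includes Hcst, which carries another tyrosine motif and no ITAM. The T cell receptor chains Cd3e, Cd3g and Cd3d had day 7 log2 fold changes of 2.96 ± 0.37, 2.74 ± 0.34 and 2.54 ± 0.37 (adjusted p = 0.000234, 0.000219 and 0.000602), from sham means of at most 0.14 FPKM. They entered the test through TCI samples alone, as did the other genes below 1 FPKM in every sham sample, so their adjusted p-values are a description. Hcst, the adaptor DAP10, had 2.25 ± 0.27 (adjusted p = 0.000176) and Cd247 1.52 ± 0.25 (adjusted p = 0.00123). The Cd3 genes stand in the list of T cell markers as well.

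Receptors that couple to DAP12 or the gamma chain were mostly too low to test, with 5 of 24 listed genes tested and 1 past the cut-offs on each day. That gene was Csf1r, which has DAP12 in its pathway and is also a macrophage marker, with 5.26 FPKM in sham, 26.7 FPKM on day 7 and 18.6 FPKM on day 14 (day 7 log2 fold change 2.15 ± 0.23, adjusted p = 0.00011). The NK receptors Klrk1 and Klrd1 had 2.63 ± 0.53 and 1.26 ± 0.23 on day 7 (adjusted p = 0.00439 and 0.00238). Ncr3 had 0.91 ± 0.15 (adjusted p = 0.00113) and Siglec15 0.04 ± 0.17 (adjusted p = 0.898). Clec7a, the beta-glucan receptor dectin-1 with a motif of its own (hemITAM), had 0.54 FPKM in sham, 4.64 FPKM on day 7 and 5.74 FPKM on day 14. It passed the cut-offs on day 14 (2.05 ± 0.27, adjusted p = 0.000691) and not on day 7 (1.79 ± 0.29, adjusted p = 0.00113), and the difference between days 14 and 7 was 0.25 (adjusted p = 0.827).

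Among the kinases upstream of and beside Syk, Lck, the Src family kinase of T cells, was the only 1 of 8 past the cut-offs on day 7 (from 0.58 FPKM in sham to 7.17 FPKM, log2 fold change 2.28 ± 0.32, adjusted p = 0.000425), and 0 of 8 were on day 14. The myeloid kinases Lyn and Fgr had 1.69 ± 0.32 and 1.57 ± 0.31 on day 7 (adjusted p = 0.00283 and 0.00352), and Zap70, the T cell relative of Syk, had 1.46 ± 0.31 (adjusted p = 0.00611). Yes1 and Fyn, which are made by many cells, had -0.07 ± 0.07 and 0.08 ± 0.07 (adjusted p = 0.541 and 0.481).

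Downstream of Syk, 8 of 36 genes were past the cut-offs on day 7 and 1 on day 14. At an adjusted p of at most 0.05, 25 and 24 were higher, beside 14.5% and 11.9% of all genes tested. On day 7 Rac2, a GTPase of blood cells, had the largest log2 fold change of the list with 3.17 ± 0.39 (from 1.65 FPKM in sham to 23.5 FPKM, adjusted p = 0.000217). It was followed by the NADPH oxidase subunits Cybb (2.26 ± 0.34, adjusted p = 0.000715) and Cyba (2.11 ± 0.30, adjusted p = 0.00052) and by the actin regulator Was (1.96 ± 0.28, adjusted p = 0.00052). Rac2 was the gene that also passed on day 14 (2.67 ± 0.36, adjusted p = 0.000709). The ubiquitin ligases Cbl and Cblb, which are known to end this signal, had -0.02 ± 0.08 and 0.09 ± 0.08 on day 7 (adjusted p = 0.901 and 0.508).

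Inhibitory genes were past the cut-offs as well. Of 17 ITIM receptors tested, 7 were on day 7 and 4 on day 14, with medians of 1.48 and 1.10 in log2 fold change. The largest on day 7 were the lectin Clec4a3 (from 1.35 to 15.5 FPKM, 2.81 ± 0.28, adjusted p = 7.55e-05), Lilrb4 (from 0.27 to 8.25 FPKM, 2.80 ± 0.21), Clec4a1 (2.06 ± 0.21) and Clec12a (1.97 ± 0.26). Lilrb4 was at most 0.39 FPKM in sham and entered the test through TCI samples. Cd22 and the endothelial Pecam1 had 0.13 ± 0.14 and 0.21 ± 0.13 (adjusted p = 0.543 and 0.279). Among 11 inhibitory phosphatases and adaptors, 1 was past the cut-offs on day 7 and 0 on day 14. This was Dok2 (1.58 ± 0.23, adjusted p = 0.000504), and Ptpn6, the phosphatase SHP-1 that ITIMs recruit, had 1.94 FPKM in sham and 11.2 FPKM on day 7 (2.05 ± 0.35, adjusted p = 0.00162). Its relative Ptpn11 had 0.01 ± 0.04 and Csk, the kinase that restrains Src kinases, 0.04 ± 0.06.

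On day 1 0 of the 89 pathway genes were past the cut-offs in limma and 2 had an unadjusted p under 0.05, beside 5.23% of all genes tested. Between days 14 and 7 the count was 0 as well, and 12 of 89 genes had an unadjusted p under 0.05, all of them lower on day 14, where 7.01% of all genes tested were lower at that threshold. The lowest adjusted p among these was 0.172 for the ITIM receptor Cd300a, with a log2 fold change of -0.92.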

How the data were processed

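RNA from the L3 to L5 DRGs of 16 rats was sequenced. Per the study's methods, reads of low quality were discarded, the rest were mapped with HISAT and Bowtie2, and RSEM gave the expression estimates; the submitters' processing notes name Bowtie2 and CASAVA 1.4. The genome build and annotation are not given in the sources used here. The authors deposited FPKM, 1 table per sample, with no counts and no scaling between samples beyond that of FPKM. FPKM fixes each sample's total, so a rise of some genes lowers others, and RSEM divides fragments among similar genes.

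Values were taken as log2(FPKM + 1), and the 4 groups of 14 samples entered 1 limma 3.58.1 fit in R 4.3.3 (eBayes with an intensity trend). Genes had to reach 1 FPKM in 3 samples or more, which left 14023. P-values were adjusted over all of them by the Benjamini-Hochberg method. The cut-offs were those of the study, an absolute log2 fold change no smaller than 1 with an adjusted p up to 0.001. The fit was tested on simulated data. P-values measure the spread between rats, as each sample is 1 rat.

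The 9 genes and the gene lists were chosen with earlier results of these data known. Genes named beside them were, per pathway list, up to 4 with the largest and 2 with the smallest log2 fold change on day 7. Per marker list they were up to 4 abundant genes, and per member the 3 nearest genes. Cd300a, Elane, Mpo, Ncr1 and Klrb1 fall outside this rule and were chosen after their values were seen. Gene identifiers matched RefSeq (GRCr8) in 19220 cases. No pair of samples shared over 0.66% of identical values above 1 FPKM. Sample numbers were not used to pair the samples in the main fit. Alternatives were all 16 samples, the compared groups alone, no trend, quantile normalization, median scaling, other filters, a pseudocount of 0.1, looser cut-offs, a replicate block and each sample left out. Figures were drawn with matplotlib 3.10.9.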

Additional observations from a re-analysis of the deposited data

Results flagged for a closer look

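Of the 9 genes in 4 groups of 4 samples, 36 sets of values, 4 held a sample whose gap to its nearest neighbour was too large a part of the range of the group by Dixon's test, and chance gives about 1 in 20. TCI day 14 sample 2 was such a high value for Fcgr3a (61.08 FPKM), Fcer1g (101.76 FPKM) and Tyrobp (59.24 FPKM). The macrophage marker sum of this sample was 1872 FPKM against 548 to 703 in the other day 14 samples, and its NK cell marker sum of 51.6 FPKM was the highest of all samples. The part of either in these values was not tested. TCI day 1 sample 2, which the study left out, was the high value for Fcgr1a (2.22 FPKM against 1.46 to 1.47 in the other 3 samples), and it was the highest of its group for 6 of the 9 genes.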

How the results depend on the processing

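In the limma fits, the counts of the 9 genes and of the 89 pathway genes past the cut-offs were 0 for TCI day 1 against sham and for day 14 against day 7 under every alternative run. For day 7 against sham, 5 of 9 became 9 at an adjusted p of at most 0.05 with no limit on the fold change, and the other settings gave 4 to 7. The pathway count of 23 became 13 with no filter, 6 with a mean of at least 5 FPKM, which tests fewer genes, 44 at an adjusted p of at most 0.05 and 64 with no limit on the fold change besides. For day 14, 5 of 9 became 0 with only the 2 groups compared, 3 without the intensity trend, 3 with quantile normalization, 1 with no filter and 9 at the looser p with no fold limit. The pathway count of 11 on day 14 became 1, 5, 7 and 3 under those first 4 settings, 5 with a mean of at least 5 FPKM, 21 with a pseudocount of 0.1, and 37 and 61 at the looser p with and without the fold limit. Day 7 against day 1 went from 5 to 9 at the looser p with no fold limit. Where no reason is named, the cause was not tested.

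With each sample left out in turn, counts of the 9 genes ranged from 4 to 7 for day 7, 0 to 5 for day 14 and 0 to 6 for day 7 against day 1, and pathway counts from 4 to 39 and 2 to 17. The balance of Fcgr2b over Fcgr2a between days 14 and 7 was -1.02 over all 16 samples and ranged from -0.676 to -0.288 with 1 sample left out, and that of Tyrobp over Fcer1g ranged from -0.205 to -0.123.

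Deviations of same-numbered samples from their group means had a median r of 0.002 (18 pairs, -0.095 to 0.269, 4 over 0.1). For samples of different numbers the median r was -0.005 (55 pairs, -0.326 to 0.41, 8 over 0.1). With the replicate block, the 9 genes had 0 past the cut-offs on day 14 and 1 for day 7 against day 1, and the pathway 12 on day 7 and 1 on day 14.

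Median scaling moved the median log2 fold change of all genes on day 7 from 0.042 to -0.068. Depth behind single values is unknown, which limits genes near 0 FPKM such as Fcgr2a and Syk in sham.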
